A study of Mus musculus with 25 samples.

Results

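Islets of Langerhans from control-litter FVB mice at postnatal day 180 (P180) were set against islets from control-litter FVB mice at P21, with 5 mice at each age and 1 library per mouse. FVB is an inbred laboratory strain, and every mouse of the comparison had been suckled in a litter of 9 pups until P21. Islets were picked by hand in 3 rounds to purify them. The comparison covers the 22300 autosomal intervals among 22749 in the count table, and 21966 of them passed the filter on low counts and were tested. The series holds 25 libraries: besides these 10, there are islets of mice suckled in small litters of 4 pups (5 mice at P21 and 5 at P180) and undissected pancreas of 5 control mice at P21. Undissected pancreas stands for exocrine tissue, since islets are a very small part of the organ. Small-litter and exocrine libraries are given only as context. The labels give no genetic change or drug for any group, and neither the sex of the mice nor the litters they came from. Whether the mice of a group were littermates is therefore not known, and p-values measure the spread between these animals.

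DNA methylation is the addition of a methyl group to cytosine, mostly at CpG dinucleotides, and the pattern of methylated sites differs between cell types and shifts with age in many tissues. Islets are clusters of hormone-secreting cells, mainly insulin-producing beta cells with alpha, delta and other endocrine cells, set within the acinar and ductal tissue that makes and carries digestive enzymes. Islets in the young mouse still grow and mature after suckling, and adult beta cells renew slowly. The study's title names a drift of islet methylation toward the exocrine pattern with age as the question behind this comparison. The assay, methylation-specific amplification with sequencing (MSA-seq), reads CCCGGG sites. SmaI first removes the unmethylated sites, XmaI then opens the methylated ones, and fragments with a methylated site at both ends can be amplified. More reads from an interval between neighbouring sites thus stand for more methylation at its ends, on a relative scale without absolute percentages. Values below are normalised read counts (CPM), relative to the total of a library and scaled over all 25 libraries. DNA was taken from whole islets, so a different share of one cell type and a different methylation within cells cannot be told apart. Intervals were not placed in genes, and the islet label could not be checked against marker genes.

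Total counts ran from 2912624 to 5583859 at P21 and from 3527467 to 5862511 at P180. Some libraries stood apart from the others of their age. P21 replicates 1 and 3 lacked any count at 0.803% and 1.19% of autosomal intervals, against 0.0538% to 0.0717% in the other P21 mice. P180 replicate 3 lay nearer to exocrine tissue than any other control islet library, and P21 replicate 2 carried the largest share of its counts in short intervals. Many of the results that rest on these mice are given with and without them. The lowest correlation of log2 CPM between replicates of one age was 0.818, and no 2 libraries agreed within sampling noise.

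The edgeR quasi-likelihood test called no autosomal interval different between P21 and P180 in control islets. It called 0 of 21966 higher and 0 lower, each 0% of those tested (Benjamini-Hochberg adjustment, lowest adjusted p = 0.801). An unadjusted p under 0.05 was found for 484 intervals on the higher side at P180 (2.20%) and for 429 on the lower side (1.95%), 913 in all where 1098 would be expected with no difference anywhere. DESeq2 called 4 intervals, all higher at P180 (0.0182%), and limma voom with library weights called 27, also all higher (0.123%). The typical difference was small: the median of the absolute log2 fold change was 0.17, and 95% of the values lay between -0.60 and 0.66. The median standard error was 0.25, and the 95% confidence interval of an interval's log2 fold change typically reached 0.54 to either side. Differences under about that size could not be told from 0 at a typical interval with 5 mice per age, even before adjustment. Larger ones also failed the adjusted threshold, such as a log2 fold change of 1.29 ± 0.24 (SE) at chr7:114692369-114693781 (edgeR, adjusted p = 0.801). The 0 calls therefore do not exclude differences above 0.54. The numbers with an unadjusted p under 0.05 depended on single mice, with 834 higher without P21 replicate 2, and 838 higher and 645 lower without P21 replicate 5.

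The 2 ages did not overlap at 253 intervals. All 5 P180 mice lay above all 5 P21 mice at 122 of them (0.555% of those tested), and all lay below at 131 (0.596%). The first set had low levels at P21, with a median of 10.2 CPM against 18.4 CPM over all tested intervals, and a median log2 fold change of 0.70. The second had high levels at P21, with a median of 37.7 CPM and a median log2 fold change of -0.50. Neither set was short or long, with median lengths of 1198 and 1188 bp against 1157 bp for all intervals. Since these levels are from the libraries that chose the sets, they describe the sets and support nothing further. With 5 mice per age, complete separation in either direction also arises at some intervals when no level differs with age. The number expected in this way was not computed. Whether the 122 and 131 intervals exceed it was therefore not tested, and separation at an interval is by itself no sign of a difference. Fitted differences over 2-fold were found for 125 intervals with more signal at P180 (0.569%) and 42 with less (0.191%). On library totals alone, without a scaling for composition, 140 intervals were higher and 93 lower without overlap, so the balance of the 2 directions depended on the scaling. With 1 mouse left out the higher set grew to between 154 and 324 intervals and the lower one to between 172 and 382. Growth follows from the rule, since fewer mice have to separate. A larger count is therefore by itself no sign that the result depends on the mouse left out. By over 1.5 times, the higher count moved without P21 replicates 1 (194), 2 (276), 4 (198) and 5 (324) and without P180 replicates 2 (197), 3 (242) and 4 (225). The lower count moved as far without P21 replicates 2 (382), 4 (198) and 5 (265) and without P180 replicate 2 (238).

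The selection rule took 20 intervals from those without overlap, 11 that were higher and 9 that were lower at P180. Their adjusted p-values in edgeR ran from 0.801 to 0.997, so none passed the threshold, and their differences are given as measured values. All 20 kept their direction under every alternative that could be fitted. For the fits with mice left out this follows from the choice. Where the ages do not overlap, leaving out mice cannot reverse the direction at a given scaling. The other alternatives rest on the same mice that chose the intervals, so the kept direction is no separate support for these differences.

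Of the intervals higher at P180, those with counts in every control mouse come first. At chr7:114692369-114693781 (1412 bp, mm9) the P21 mice had 18.1, 15.5, 8.28, 10.3 and 13.5 CPM and the P180 mice had 39.7, 25.02, 40.1, 24.9 and 27.4 CPM. Every P180 mouse was thus above the highest P21 mouse, and the group means were 13.2 ± 3.93 and 31.4 ± 7.81 CPM (SD, n = 5 each). The log2 fold change was 1.29 ± 0.24 (SE), and DESeq2 and limma voom called the interval (adjusted p = 0.00922 and 0.0448). At chr17:30108071-30108869 (798 bp) the P21 values were 46.7, 74.1, 38.6, 34.0 and 51.0 CPM, and the P180 values were 106, 77.6, 103, 105 and 97.1 CPM. P21 replicate 2 came close to the lowest P180 mouse, and the other P21 mice were well below. Its log2 fold change was 1.03 ± 0.20 (SE), again called by DESeq2 and limma voom (adjusted p = 0.0244 and 0.0369). The interval chr1:62955838-62956592 (754 bp) had 57.0, 50.9, 47.5, 47.1 and 51.6 CPM at P21 and 74.6, 83.4, 86.0, 73.7 and 68.1 CPM at P180. The log2 fold change of 0.63 ± 0.14 (SE) was called by DESeq2 (adjusted p = 0.0244) and not by limma voom (adjusted p = 0.0774).

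A similar picture of moderate levels and tight groups was seen at chr17:15332309-15333210 (901 bp). There the P21 mice had 57.0, 47.1, 55.5, 55.0 and 54.1 CPM and the P180 mice 85.5, 71.5, 87.1, 80.8 and 73.0 CPM, a log2 fold change of 0.59 ± 0.14 (SE). At chr8:123073824-123074613 (789 bp) the values were 10.2, 8.85, 8.28, 9.36 and 11.99 CPM at P21 and 15.8, 17.6, 24.4, 16.5 and 20.5 CPM at P180, and the group mean was 1.94 times as high at P180. Larger ratios came with fewer counts. The interval chr11:94247192-94247996 (804 bp) had 9.21, 4.06, 6.75, 4.76 and 4.85 CPM at P21 and 16.3, 11.3, 36.7, 9.50 and 19.7 CPM at P180. P180 replicate 3 carried much of its mean of 18.7 ± 10.9 CPM, while P180 replicate 4 lay just above the highest P21 mouse. Without P180 replicate 3, its log2 fold change was 1.29, where it had been 1.71 ± 0.38 (SE) with all mice. At chr1:189431030-189431318 (288 bp) the P21 mice had 1.36, 1.20, 0.613, 0.492 and 0.766 CPM, 17 counts in all, and the P180 mice had 2.81, 2.91, 6.30, 3.17 and 3.83 CPM, 81 counts in all. Here the direction was shared by all mice, and the size of the ratio is poorly determined because of the low counts.

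**Figure D1:**
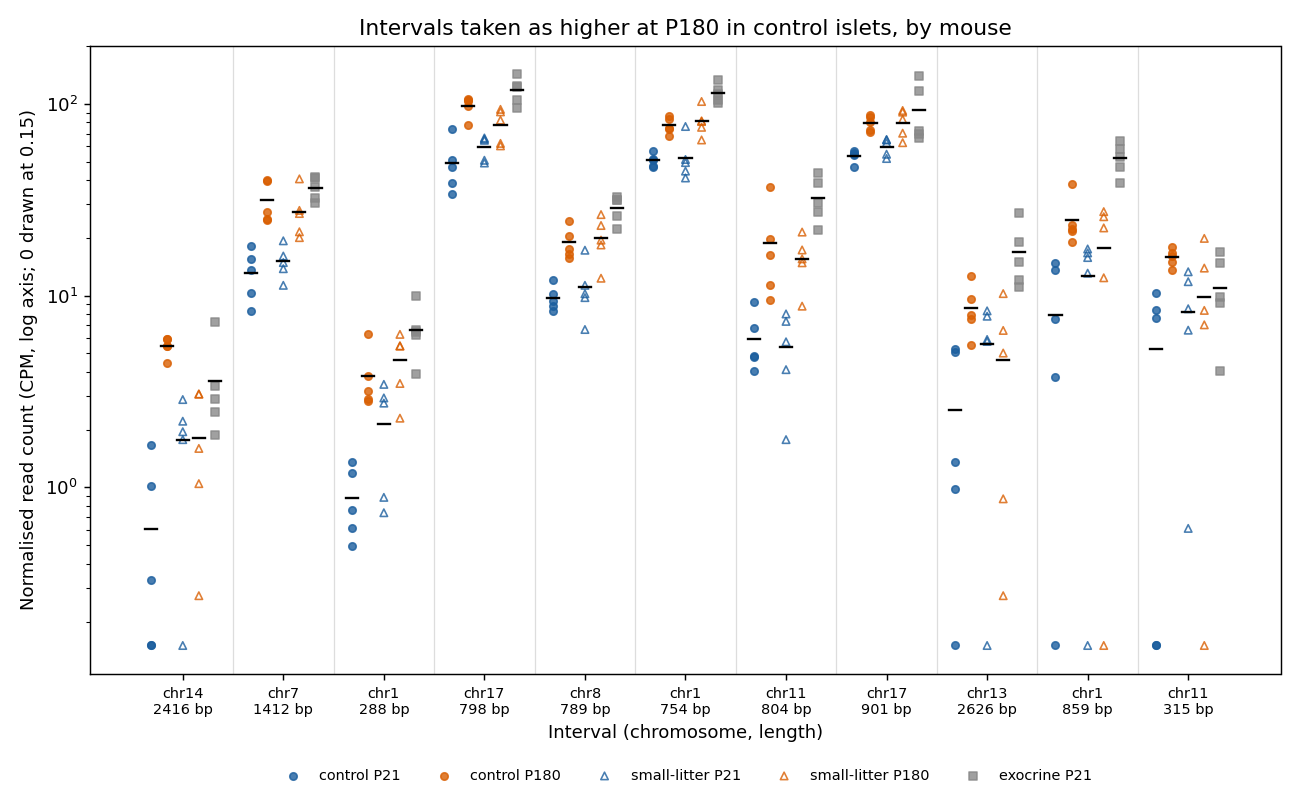
Normalised read count (CPM, log axis) of each mouse at the 11 intervals taken as higher at P180, labelled by chromosome and length, with 5 points per group and a black bar at the group mean. Control P180 mice (filled orange) lie above all control P21 mice (filled blue) by the rule of choice, and the 4 intervals on chromosomes 14, 13, 1 (859 bp) and 11 (315 bp) have P21 mice at 0.

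The other 4 intervals of this direction had P21 mice without a count. The largest log2 fold change of the 20, 3.07 ± 0.54 (SE), was at chr14:115175847-115178263 (2416 bp), where the P21 mice had 0, 1.67, 0, 0.328 and 1.02 CPM, 13 counts in all. The P180 mice had 5.91, 5.97, 4.46, 5.49 and 5.47 CPM, 121 counts in all, and both DESeq2 and limma voom called the interval (adjusted p = 0.000644 and 0.00879). At chr13:5328185-5330811 (2626 bp) P21 replicate 3 had no count, replicates 1 and 4 had 1.36 and 0.985 CPM, and replicates 2 and 5 had 5.26 and 5.10 CPM. The P180 mice had 9.57, 7.59, 5.51, 12.7 and 7.93 CPM there. At chr1:172416585-172417444 (859 bp) the P21 values were 3.75, 14.8, 0, 7.55 and 13.5 CPM, and the P180 values were 19.1, 21.6, 38.3, 23.4 and 22.2 CPM. P21 replicates 1 and 3 both had no count at chr11:111681504-111681819 (315 bp), where the other P21 mice had 10.3, 8.37 and 7.66 CPM and the P180 mice had 16.6, 16.1, 13.6, 17.9 and 15.04 CPM. So in the last 3 of these the P21 mice were split into low and intermediate ones, while every P180 mouse had counts.

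Intervals without a count in P21 replicates 1 and 3 touch the largest increases of the whole comparison. An interval was called missing in a library when it had 0 counts although the median islet library would give at least 10 counts at that depth. By this measure, set after seeing the data, 105 intervals were missing in P21 replicate 1, 216 in P21 replicate 3, and 256 in one or both. They are 1.17% of the intervals tested. Since they were picked for P21 mice at 0, a higher level at P180 follows from the choice: 241 of the 256 had one, with a median log2 fold change of 0.64, and 0 were among the 42 intervals over 2-fold lower. They made up 46 of the 125 intervals over 2-fold higher and 15 of the 27 called by limma voom. Their part in these results was not tested beyond leaving the mice out. Without P21 replicates 1 and 3, edgeR still called 0 intervals, with 261 and 228 unadjusted p-values under 0.05 in the 2 directions.

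At the intervals lower at P180 every control mouse had counts. At chr15:100525232-100526953 (1721 bp) the P21 mice had 33.4, 24.1, 42.9, 35.5 and 23.7 CPM, and the P180 mice had 19.98, 18.9, 7.34, 16.5 and 12.3 CPM. The lowest P180 mouse was replicate 3, and the log2 fold change was -1.06 ± 0.26 (SE). It was -0.72 without P21 replicates 1 and 3 and P180 replicate 3. At chr5:115919059-115920740 (1681 bp) the P21 mice lay close together at 22.9, 18.9, 26.1, 21.8 and 20.9 CPM. The P180 mice had 16.04, 14.2, 8.66, 9.92 and 9.03 CPM there, a log2 fold change of -0.91 ± 0.21 (SE). At chr4:22630628-22630796, a short interval of 168 bp, the P21 mice had 23.5, 23.0, 20.2, 10.997 and 9.19 CPM and the P180 mice 8.72, 6.29, 3.41, 6.97 and 8.21 CPM. Its P21 mice spread over a wider range than its P180 mice, and P21 replicates 4 and 5 came close to the highest P180 value.

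Narrower differences were seen at chr1:182887552-182888230 (678 bp), with 45.7, 41.6, 49.99, 44.5 and 55.4 CPM at P21 and 31.8, 32.1, 18.4, 24.3 and 33.4 CPM at P180. At chr7:52828698-52829044 (346 bp) the values were 52.5, 58.6, 50.6, 43.7 and 53.3 CPM and 28.1, 29.4, 17.8, 32.5 and 40.2 CPM. At both, P180 replicate 3 was the lowest mouse, and the other 4 were below every P21 mouse too. The largest spread within an age was at chr7:149022421-149024143 (1722 bp), where the P21 mice had 74.0, 46.9, 146, 92.9 and 40.3 CPM and the P180 mice 38.3, 40.2, 33.6, 29.1 and 33.9 CPM. The means there were 80.0 ± 42.5 and 35.0 ± 4.34 CPM (SD, n = 5 each), so the P21 mice differed among themselves by more than the P180 mice did. The log2 fold change there was -1.17 ± 0.30 (SE), and -0.77 without P21 replicates 1 and 3 and P180 replicate 3. The remaining 3 intervals were chr10:61401047-61401854, chr6:42949340-42949800 and chr7:70169362-70169516, with log2 fold changes of -1.47, -0.97 and -0.93. The first rests on 35 counts over the P180 mice, the second on 194 and the third on 80. Without P21 replicate 2 the log2 fold change of the third was -0.55.

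**Figure D2:**
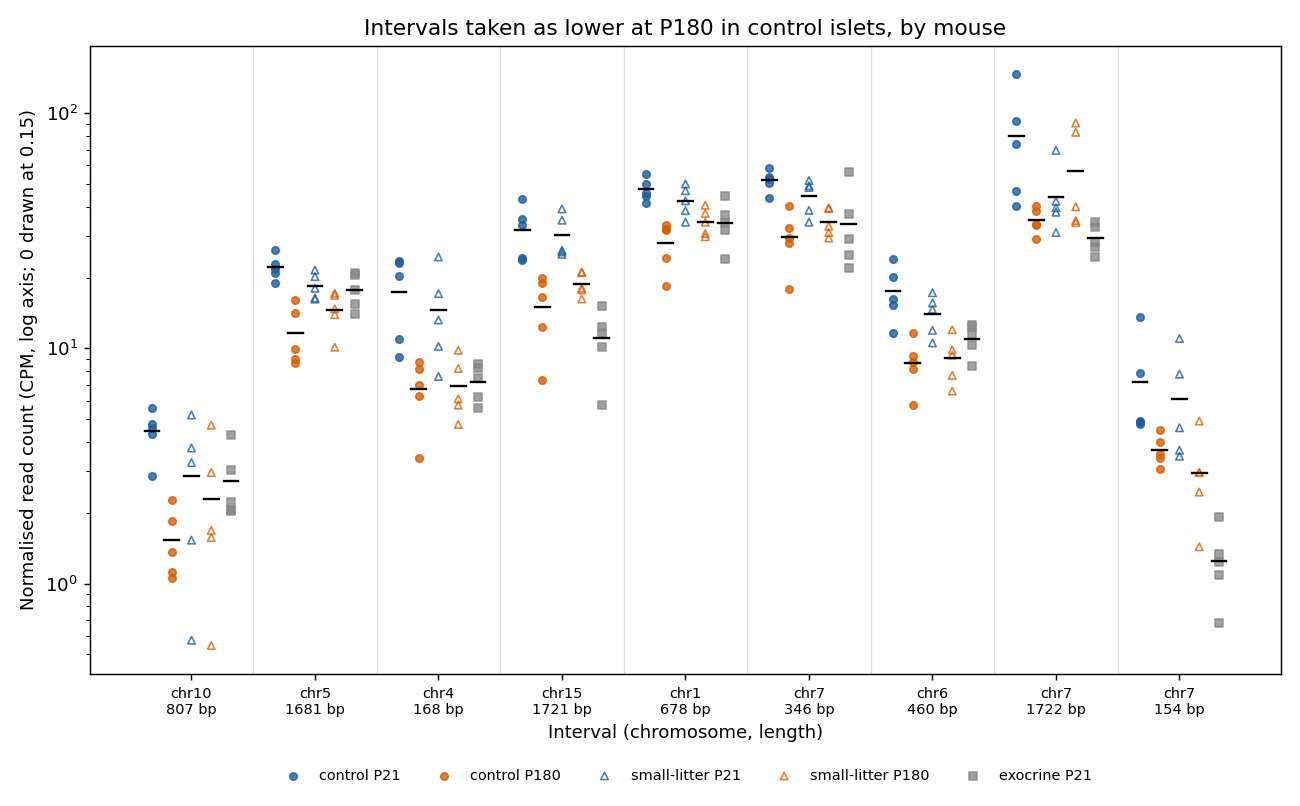
Normalised read count (CPM, log axis) of each mouse at the 9 intervals taken as lower at P180, labelled by chromosome and length, with 5 points per group and a black bar at the group mean. The control P180 mice (filled orange) lie below all control P21 mice (filled blue) by the rule of choice, and at the 1722 bp interval of chromosome 7 the control P21 mice spread from 40.3 to 146 CPM.

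Small-litter mice share no library with this comparison, so they show the same intervals in other animals. Of the 10 intervals chosen as higher that could be fitted in small-litter mice, 9 were higher at P180 there too, and 7 had an unadjusted p under 0.05 in that direction (2.26% of all autosomal intervals tested did). Of the 9 chosen as lower, 8 were lower in small-litter mice and 5 had an unadjusted p under 0.05 in that direction (2.63% of all). At chr11:94247192-94247996 the small-litter means were 5.40 ± 2.53 and 15.6 ± 4.58 CPM at the 2 ages, a log2 fold change of 1.53 ± 0.35 (SE). The interval chr1:62955838-62956592 had 52.5 ± 13.8 and 81.1 ± 13.9 CPM, and its log2 fold change of 0.64 was nearly that of control mice. At chr17:30108071-30108869 the difference was smaller, with 59.3 ± 8.53 and 77.8 ± 15.7 CPM and a log2 fold change of 0.40. No interval of the 20 was called in small-litter mice after adjustment (edgeR). For the intervals with P21 mice at 0 the small-litter values were of another kind. At chr1:172416585-172417444 and chr11:111681504-111681819 the small-litter log2 fold changes were 0.46 ± 0.89 and 0.23 ± 0.80 (SE). Small-litter P180 replicate 2 had 0 CPM at both, and both count among the 9 with the same direction. At chr13:5328185-5330811 small-litter P21 replicate 1 had no count and P180 replicates 2 and 4 had 0.273 and 0.872 CPM, against 5.02 to 10.2 CPM in the other P180 mice, and the fitted difference was -0.29 ± 0.82 (SE). At chr14:115175847-115178263, which the filter on low counts removed from the small-litter fit, the small-litter means were 1.76 ± 1.07 CPM at P21 and 1.81 ± 1.24 CPM at P180. The exception among the intervals chosen as lower was chr7:149022421-149024143, with 44.0 ± 14.8 CPM at P21 and 56.6 ± 27.9 CPM at P180 in small-litter mice. The difference between the age effects of the litter groups was tested at each interval as an interaction. It passed the threshold at 0 of 22207 intervals (0%, edgeR, lowest adjusted p = 0.99996). An unadjusted p under 0.05 was found at 156 intervals in one direction (0.702%) and 62 in the other (0.279%). These are fewer than no difference would give, so the test was conservative. Control minus small-litter change was -1.52 ± 0.47 (SE) at chr7:149022421-149024143 (edgeR interaction, unadjusted p = 0.0040). It was 3.08 ± 0.89 at chr14:115175847-115178263 (edgeR interaction, unadjusted p = 0.0023) and 2.09 ± 1.09 at chr13:5328185-5330811 (unadjusted p = 0.069). The choice of these intervals in control mice favours such values, so none of them is shown to differ.

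**Figure D3:**
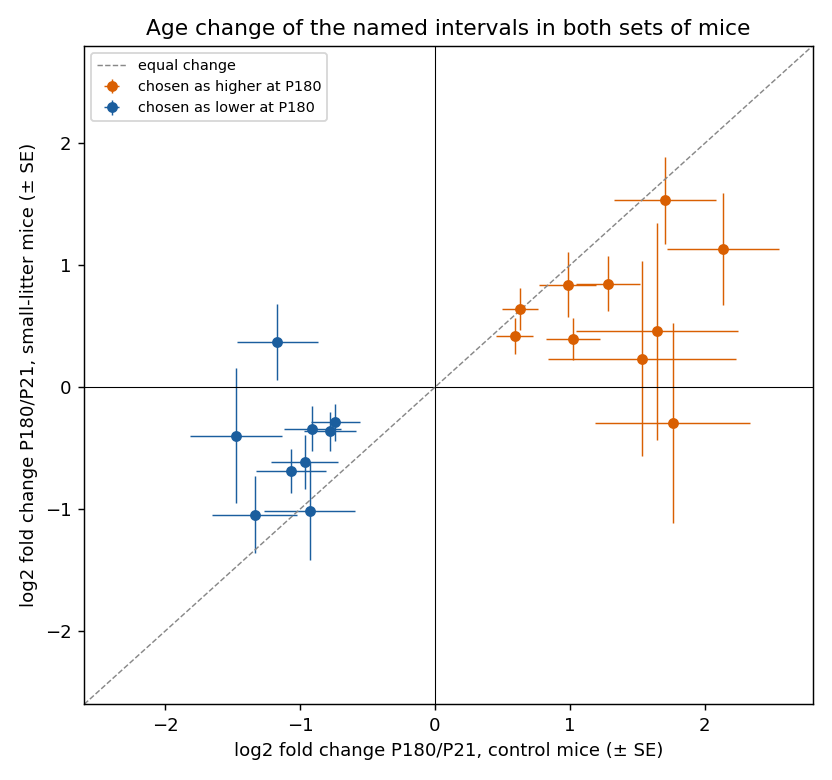
Log2 fold change from P21 to P180 in control mice (x axis) and small-litter mice (y axis) at the 19 named intervals fitted in both, with bars of 1 SE, chosen as higher (orange) or lower (blue) in control mice. Of the points, 17 have the same sign in both sets of mice, and most lie nearer to 0 on the small-litter axis. Smaller values there follow at least in part from choosing the intervals in control mice. The dashed line marks equal values.

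Beyond the named intervals, 65.3% of the 21900 autosomal intervals fitted in both sets of mice had the same sign. Among intervals whose ages did not overlap in control mice, the same sign was found at 104 of 121 that were higher (86.0%) and at 111 of 131 that were lower (84.7%). The Pearson correlation of the 2 log2 fold changes was 0.40 across intervals (Spearman rho 0.41), given as a description, since intervals of a library share its depth and its trend on length. With each library's trend on length removed, the correlation was 0.32 and the share 63.4%. Without control P180 replicate 3 they were 0.26 and 57.3%. Leaving out the 4 islet libraries with the most missing intervals left a correlation of 0.41 and a share of 63.8%.

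Neighbouring intervals share a CCCGGG site, and 12 of the 20 named intervals had at least 1 neighbour in the table. All 14 of these neighbours had the sign of the named interval, where 63.0% of all 5815 tested neighbouring pairs had the same sign. Of the 14, 5 had an unadjusted p under 0.05, and so had 4.16% of all tested intervals. The neighbour of chr1:189431030-189431318, at chr1:189430670-189431030, had a log2 fold change of 1.80 ± 0.39 (SE), and that of chr1:62955838-62956592, at chr1:62955013-62955838, had 0.41 ± 0.17. For chr7:52828698-52829044 the neighbour chr7:52828111-52828698 had -0.54 ± 0.17 and was itself without overlap. Others were flat, such as chr17:15333210-15334931 with 0.06 ± 0.18 beside chr17:15332309-15333210, whose neighbour on the other side, chr17:15331706-15332309, had 0.67 ± 0.23. Since neighbours share a site, they are not independent readings. The named intervals were also chosen as extreme in these same libraries. Changes of neighbouring intervals correlated at 0.38 over all tested pairs (Pearson), so shares above those of all intervals follow at least in part from the choice.

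By interval length, the class medians depended on single mice. In the shortest 10% of intervals (median 168 bp) the median log2 fold change was -0.22, and 25.7% of these intervals were higher at P180, where 49.8% of all were. This median turned to 0.03 without P21 replicate 2, and it was -0.13 without P21 replicate 1 and -0.36 without P21 replicate 5. Around 1018 bp the median was 0.05, and it was -0.00 without P21 replicate 2 and -0.02 without P180 replicate 3. In the longest 10% (median 2742 bp) it was -0.03, and it turned to 0.01, 0.03 and 0.03 without P21 replicate 3, P21 replicate 4 and P180 replicate 3. The share of counts in these shortest intervals varied more between mice than between ages. It was 4.03%, 5.26%, 2.58%, 2.51% and 1.78% in the P21 mice and 3.18%, 2.59%, 2.13%, 3.61% and 2.49% in the P180 mice. The P21 mice held both the highest and the lowest value, and the difference of the means, -0.433 percentage points, was within the spread (exact permutation, two-sided p = 0.540, 5 mice per age). It turned to 0.0737 without P21 replicate 2. Removing each library's trend on length sets the medians of the 10 classes of length near 0 by construction (-0.01 to 0.04). Classed by their level in small-litter P21 islets, which do not enter the comparison, the lowest 20% of intervals (median 4.72 CPM) had a median log2 fold change of 0.00 and the highest 20% (median 108 CPM) had 0.03. Without P180 replicate 3 their order was reversed, with 0.06 and -0.05. Among intervals with a mean of at least 50 counts the lowest 20% had 0.19. That filter uses the counts of the compared mice, so intervals of low level pass it only where these mice are high. The value of 0.19 is therefore no separate result on level. Medians of the 19 autosomes lay between -0.03 and 0.02. Chromosome 17 held 15 of the 122 intervals higher without overlap, 12.3% of them against 5.39% of the intervals tested. This was the highest count of the 19 autosomes. The chromosome as a whole was not higher, with a median log2 fold change of -0.03 and 46.2% of its intervals higher at P180, and it held 6 of the intervals lower without overlap.

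Intervals that separate exocrine tissue from islets were chosen without the control islet libraries, by setting exocrine tissue against small-litter P21 islets. That contrast called 1276 intervals higher (5.75% of 22183) and 2289 lower (10.3%) in exocrine tissue (edgeR, adjusted p under 0.05). Of the 1216 exocrine-higher intervals tested here, 76.2% were higher at P180 in control islets, with a median log2 fold change of 0.15. Of the 2288 exocrine-lower ones, 15.8% were higher at P180, with a median of -0.25. The median followed the size of the exocrine difference. It was -0.35 at the 410 intervals over 4-fold lower in exocrine tissue, -0.25 at the 1958 that were 2 to 4-fold lower, 0.24 at the 638 that were 2 to 4-fold higher and 0.87 at the 12 over 4-fold higher. With the trend on length removed, the medians of the exocrine-higher and exocrine-lower intervals were 0.12 and -0.15. Within each of 10 classes of length the exocrine-higher intervals had the higher median, by 0.20 to 0.42. Among intervals without overlap between ages, 44 of the 122 that were higher at P180 were called higher in exocrine tissue and 0 were called lower. Of the 131 that were lower at P180, 44 were called lower and 2 were called higher in exocrine tissue. All 11 named intervals higher at P180 had a higher fitted level in exocrine tissue than in small-litter P21 islets, 7 of them past the threshold, and all 9 lower ones had a lower level, 3 of them past it. Over all tested intervals the median exocrine log2 fold change was -0.01, and 5.75% and 10.3% passed the threshold in the 2 directions. At the 4 named intervals with control P21 mice at 0, small-litter P21 replicate 1 also had only 0 to 0.612 CPM. Its part in the exocrine difference there was not tested.

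**Figure D4:**
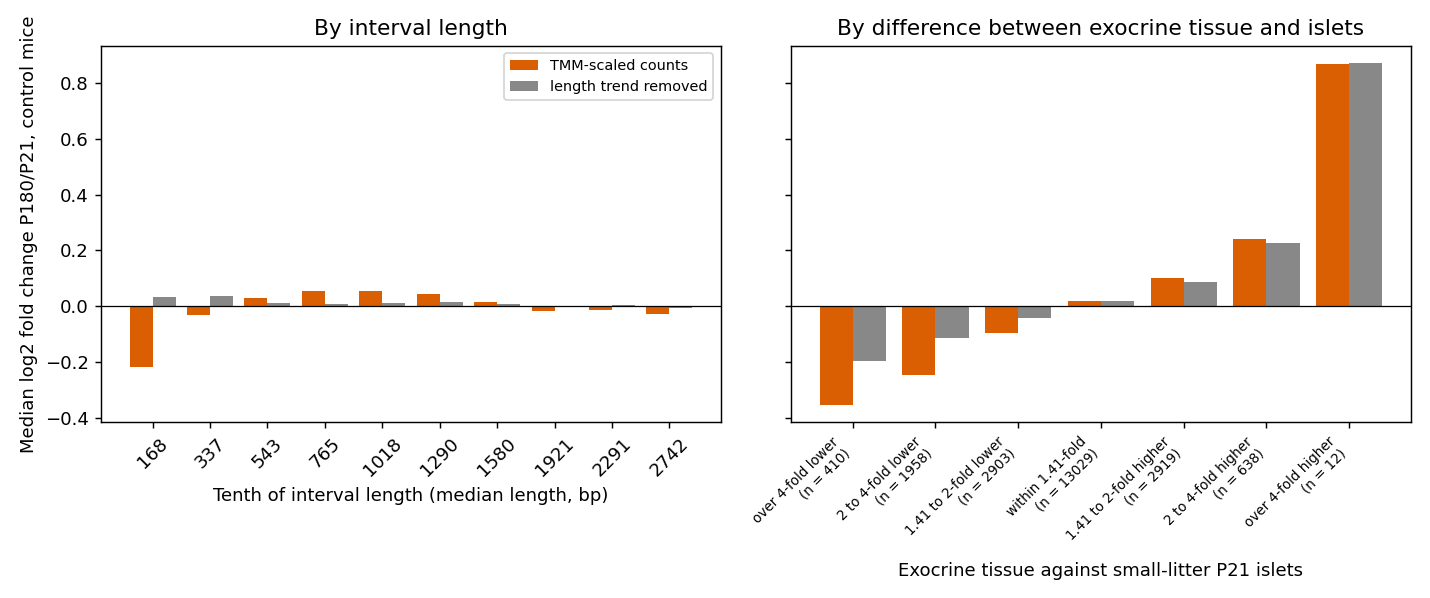
Median log2 fold change from P21 to P180 in control islets (y axis) by 10 classes of interval length (left) and by the difference between exocrine tissue and small-litter P21 islets (right), from TMM-scaled counts (orange) and with each library's length trend removed (grey). The median goes from -0.35 at intervals over 4-fold lower in exocrine tissue to 0.87 at the 12 intervals over 4-fold higher, and the shortest class has -0.22. The grey values by length are near 0 by construction.

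Taken per mouse, this shift was not larger than the spread between mice. For each mouse the mean log2 CPM over the exocrine-lower intervals was subtracted from the mean over the exocrine-higher ones. The result was 0.25, -0.13, 0.48, 0.66 and 1.22 in the P21 mice and 0.64, 0.65, 2.01, 0.52 and 0.81 in the P180 mice. P180 replicate 3 was the highest mouse, and P21 replicate 5 was above the other 4 P180 mice, so the ages overlapped. The means were 0.50 ± 0.50 and 0.93 ± 0.62 (SD), and they differed by 0.43 (exact permutation, two-sided p = 0.278, adjusted over the 4 per-mouse values p = 0.540). Exocrine libraries had 2.60 to 2.99 on this scale, which they helped to define. Without P180 replicate 3 the difference was 0.16 (two-sided exact permutation p = 0.571), and without P21 replicate 2 it was 0.27 (two-sided exact permutation p = 0.540). The class medians of 0.15 and -0.25 moved likewise, to 0.03 and -0.13 without P180 replicate 3, to 0.11 and -0.11 without P21 replicate 2, and to 0.22 and -0.34 without P21 replicate 5. P180 replicate 3 was the highest P180 mouse at 59 of the 122 higher intervals without overlap and the lowest at 89 of the 131 lower ones. With it left out, 52 of 242 higher intervals without overlap were called higher and 9 lower in exocrine tissue, and 48 of 173 lower ones were called lower and 5 higher.

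The spread between mice of one age was not larger at P180 than at P21 by the measures used. The SD of log2 CPM between mice had a median of 0.37 over intervals at P21 and 0.33 at P180, and it was larger at P180 at 41.0% of intervals. The median deviation of a mouse from the mean of the other 4 was 0.287, 0.428, 0.270, 0.251 and 0.375 on the log2 scale at P21, and 0.222, 0.226, 0.454, 0.274 and 0.209 at P180. Only P180 replicate 3 stood far from its group, and the other 4 P180 mice were lower than most P21 mice. The difference of the means was -0.0451 (exact permutation, two-sided p = 0.429) and -0.105 without P180 replicate 3 (two-sided exact permutation p = 0.0238, adjusted over the 4 per-mouse values p = 0.0952). The share of intervals without a count was 0.437% ± 0.528 at P21 and 0.0852% ± 0.0928 at P180 (SD, n = 5 each), within the spread (two-sided exact permutation p = 0.246). The difference of -0.352 percentage points was -0.164 without P21 replicate 3 and turned to 0.0209 without P21 replicates 1 and 3. P21 replicates 1 and 3, which had the most such intervals, also had the fewest counts.

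**Figure D5:**
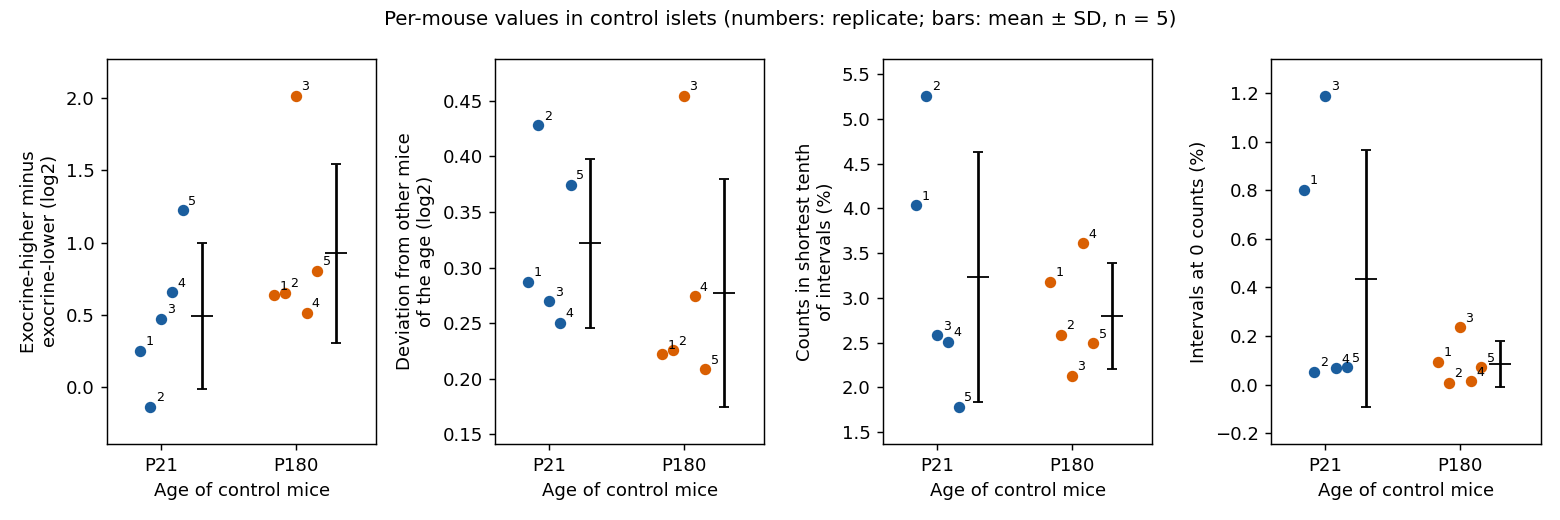
Values of each control mouse at P21 (blue) and P180 (orange): the log2 difference of exocrine-higher and exocrine-lower intervals, the deviation from the other mice of the age (log2), the percentage of counts in the shortest 10% of intervals and the percentage of intervals at 0 counts, with mean ± SD beside the points (n = 5). The ages overlap in all 4 panels, and P180 replicate 3 stands above its group in the first (2.01) and second (0.454).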

How the data were processed

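MSA-seq libraries of mouse genomic DNA were made from 25 mice, 5 per group. Per the labels' protocols, DNA was cut with SmaI and then XmaI, ligated to adaptors, amplified, sheared and sequenced. Per the submitters' processing notes, FastQC 0.10.1, cutadapt, Bowtie 0.12.9 and build mm9 were used. The authors deposited raw read counts per interval. How reads were counted and duplicates handled, and how the listed intervals were selected, is not given in the sources used here. Reads amplified by PCR are not independent molecules. Intervals were not matched to genes or sequences, since an mm9 genome and annotation were not used here, and positions are as the table gives them.

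Models were fitted to the counts with edgeR 4.0.16 in R 4.3.3 (filterByExpr, TMM scaling, robust quasi-likelihood test, Benjamini-Hochberg adjustment at 0.05). The 10 control islet libraries were fitted alone on the whole table, including 446 X and 3 Y intervals, and autosomes were reported. The small-litter age comparison, and exocrine tissue against small-litter P21 islets, were fitted in the same way. Small-litter and control age effects were compared by an interaction over 20 islet libraries. The common biological coefficient of variation was 28.9%. Total counts per control library ran from 2912624 to 5862511. CPM used TMM over 25 libraries and log2 CPM a prior count of 2. Per-mouse values were compared by exact permutation over 252 assignments (smallest two-sided p 0.00794). Named intervals are autosomal, without overlap between ages: in each direction the 8 with the smallest p, and the 5 with the largest fold change among those with at least 15 counts in every library of the higher age and an unadjusted p under 0.05. Members and rules were chosen with earlier results of these data known. The labels give no pairing of mice by replicate number. Deviations of same-numbered mice correlated at 0.14, -0.13, -0.03, -0.09 and -0.07, and only replicate 1 matched its own number best. Such values cannot exclude a link by litter or preparation. Alternatives were other scalings, other filters, DESeq2 1.42.0, limma 3.58.1, a fit of 20 libraries, a replicate block, autosomes only, removal of length trends (lowess, span 0.3), and leaving out mice. Scripts were tested on simulated data. Figures used matplotlib 3.10.9 in Python 3.11.15.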

Additional observations from a re-analysis of the deposited data

Results flagged for a closer look

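In groups of 5 mice, the most extreme mouse was called apart where its distance to the next one, as a fraction of the whole range, passed a critical value of 0.71. Chance passes this in about 1 of 20 groups, and 48 groups were examined (20 named intervals and 4 per-mouse values at 2 ages). Control P180 replicate 3 was set apart in all 3 cases found. Its log2 difference of exocrine-higher and exocrine-lower intervals was 2.01, and the next P180 mouse had 0.81. Its median deviation from the other P180 mice was 0.454 on the log2 scale, against 0.274 for the next. At chr1:172416585-172417444 it had 38.3 CPM and the next P180 mouse had 23.4 CPM. The exocrine libraries had a mean of 51.9 CPM at that interval.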

How the results depend on the processing

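The count of intervals called by edgeR was 0 in both directions under each alternative, with 1 or more mice left out included. DESeq2 called 4 and limma voom with library weights 27, all higher at P180. Of these 27, 17 had 0 counts in P21 replicate 1 or 3, and 5 of the 26 that were fitted in small-litter mice were higher at P180 there. Small-litter P180 replicate 2 had 0 counts at 13 of the 27, and its part in that number was not tested. The 4 of DESeq2 were all among the named intervals. A replicate block gave 0 calls, with and without removal of length trends. Unadjusted p-values under 0.05 numbered 484 higher and 429 lower. The higher numbered 834 and 838 without P21 replicates 2 and 5, 284 with a mean of at least 50 counts and 1305 with voom. The lower numbered 645 without P21 replicate 5, 702 with voom, 647 with length trends removed and 268 with the replicate block. Both directions fell to 261 and 228 without P21 replicates 1 and 3, and to 315 and 198 also without P180 replicate 3. The named intervals with the sign of small-litter mice numbered 17 of 19, and 11 with a mean of at least 50 counts, since fewer intervals pass. Intervals higher without overlap numbered 69 under that filter, and 267 and 501 without P21 replicates 1 and 3 and without these and P180 replicate 3. Lower ones numbered 205 with length trends removed, and 267 and 381 under those omissions. With 1 mouse left out the higher ran from 154 to 324 and the lower from 172 to 382, since fewer mice have to separate. The share of counts in the shortest 10% of intervals differed by -0.433 points, by 0.0994 with length trends removed and by -0.796 to 0.0737 with 1 mouse left out. The share of intervals at 0 counts differed by -0.352 points, and by 0.0209 without P21 replicates 1 and 3. No per-mouse difference passed the adjusted threshold under any alternative. Depth limits intervals with few counts most: their ratios are poorly determined.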

Other observations

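Neighbouring intervals that were both without overlap between ages were looked for after the data had been seen. There were 6 such pairs, 1 higher and 5 lower at P180, and 0 pairs in opposite directions, among 135 neighbouring pairs in which 1 or both intervals had no overlap. The higher pair was chr8:111345623-111346858 and chr8:111346858-111347420. The first had 6.48, 4.06, 6.13, 4.27 and 4.34 CPM at P21 and 9.28, 9.20, 27.5, 12.03 and 9.85 CPM at P180, and the second had 2.60 ± 1.18 and 5.38 ± 0.860 CPM (SD, n = 5 each). At chr6:124665810-124667411 the P21 mice had 28.3, 28.9, 27.3, 29.5 and 25.8 CPM and the P180 mice had 21.1, 20.7, 17.8, 18.6 and 15.9 CPM, and its neighbour chr6:124667411-124667927 had 45.3 ± 5.04 and 30.3 ± 5.47 CPM. The strongest signal among the pairs was at chr15:25859830-25860476, with 563 ± 39.1 CPM at P21 and 387 ± 130 CPM at P180, where P180 replicate 3 had 158 CPM and the other P180 mice 421 to 472 CPM.

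Missing intervals, those with 0 counts where at least 10 would be expected, were shared between libraries of different groups. Control P21 replicates 1 and 3 had 105 and 216, and 65 were the same intervals. Small-litter P180 replicate 2 had 172, of which 60 were missing in control P21 replicate 1 as well and 111 in control P21 replicate 3. Small-litter P21 replicate 1 had 368 and shared 48 and 121 with these P21 mice. Control P180 replicate 3 had 38 and shared 0 with either. The missing intervals of the first 2 libraries were short, with median lengths of 281 and 347 bp.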
